A study of Danio rerio with 12 samples.

Results

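The 10 genes described here encode lectins, proteins that bind sugar chains, in larvae of the zebrafish Danio rerio. Of them 7 are jacalin genes (jac1, jac2, jac3, jac4, jac6, jac7 and jac8) and 3 are galectin 9-like genes (lgals9l1, lgals9l3 and lgals9l4). They were taken by name from the 32057 genes of the deposited count tables, and all 10 had a row. The families are assumed to have been chosen by the 10 dpf values (dpf, days post fertilization) of jac1, jac7 and lgals9l4. These had far fewer reads in exposed than in control larvae. The 10 dpf values and the changes with age are therefore given as a description. Only the 7 dpf libraries, which are other larvae, give a test. That test is not fully independent of the choice, since all 12 libraries shared a fit and its estimate of spread. Whether 7 dpf values also entered the choice is not known.

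Whole larvae of the AB strain were measured by RNA sequencing. Exposed larvae received 0.4 mGy/h from tritiated water (HTO), in which part of the hydrogen is the radioactive isotope tritium. Control larvae were not contaminated. The 4 groups were HTO at 10 dpf, control at 10 dpf, HTO at 7 dpf and control at 7 dpf, each with 3 biological replicates. No group carried an engineered allele, per the labels, and the number of larvae in a library is not given in the sources used here. HTO dishes stood in an incubator within a glove box and control dishes in another incubator outside it, so exposure and incubator cannot be told apart.

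Jacalin is a plant lectin, first known from jackfruit seeds, whose fold of beta sheets holds a shallow site for mannose or galactose. Animals carry the same fold in secreted proteins. In mammals the best known is ZG16, which goblet cells of the gut release into mucus, and in fish the fold is also joined to pore-forming modules of the aerolysin type. Galectins bind beta-galactosides, and mammalian galectin 9 has a pair of linked sugar-binding domains and is known from the gut lining and from immune cells. The roles of most of the zebrafish copies named here are less well known, so they are described by family.

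The libraries held 19.4 to 67.3 M reads on genes (M is 1e6). Reads that mapped to several places made up 14.4 to 14.8% of all reads and were not counted, so genes with near-identical copies, as in these families, may be undercounted and their counts are uncertain. Levels are given as raw reads or as CPM, counts per 1e6 reads on genes after TMM scaling, which do not correct for gene length and are not compared between genes. In whole larvae, fewer cells of a type and less RNA per cell cannot be told apart. HTO replicate 1 at 10 dpf stood apart from the other 11 libraries on the second principal component, at -79.7 against -24.8 to 33.8. It also had the lowest sums of enterocyte, liver and pancreas markers of its group, so the 10 dpf differences of the fitted lectin genes, aep1 and jac11 are given below with and without it.

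Reads sufficed to fit 6 of the 10 genes (jac1, jac7, jac8, lgals9l1, lgals9l3 and lgals9l4), and 4 jacalin genes had too few. The 6 differed in pattern. Mean levels of jac1, jac7, lgals9l1 and lgals9l4 were highest in control larvae at 10 dpf. For jac1 and lgals9l4 all HTO libraries lay below all controls in CPM at both ages. For lgals9l4 at 7 dpf this order came from library size, with 4 reads in HTO replicate 2 and 3 in control replicate 3. The level of jac1 was higher at the later age in both treatments, whereas those of jac7 and lgals9l4 differed with age mainly in controls. At 10 dpf jac8, lgals9l1 and lgals9l3 showed smaller differences under HTO.

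**Figure D1:**
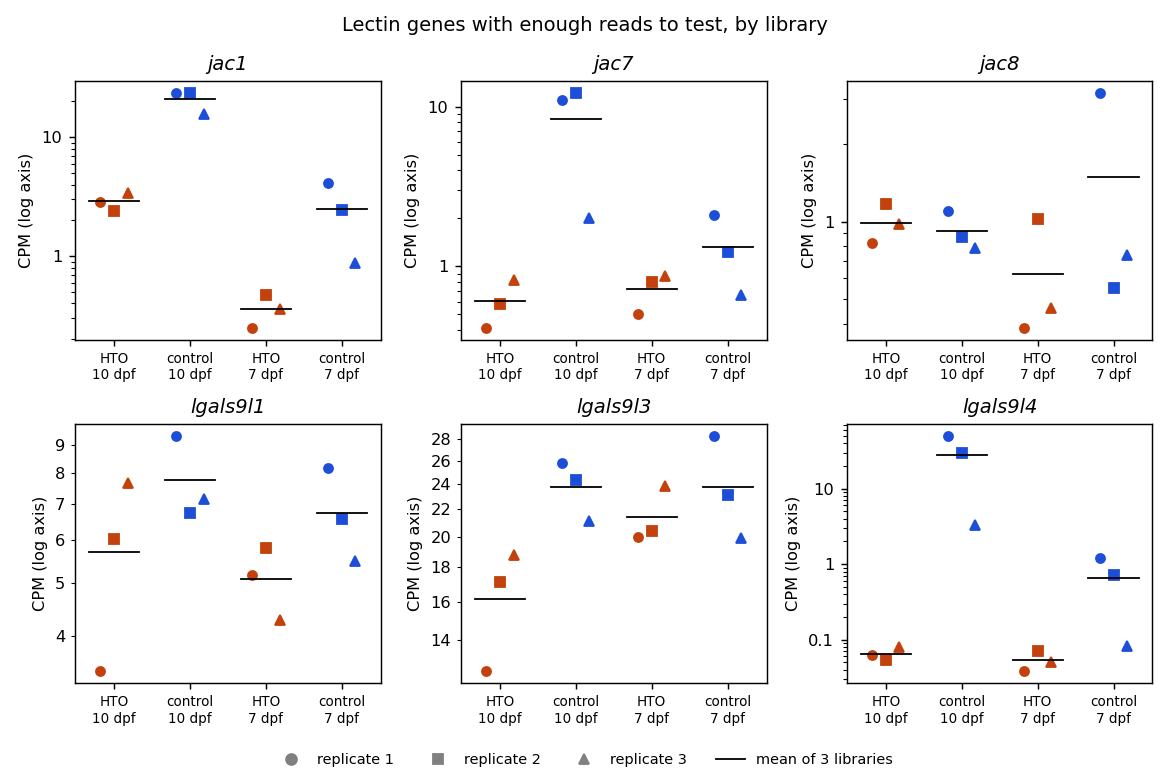
CPM on a log axis for the 6 lectin genes with enough reads, by group, with a point for each library and a line at the mean of 3 libraries. For jac1, jac7, lgals9l3 and lgals9l4 all HTO libraries at 10 dpf lie below all controls of that age. For jac1 and lgals9l4 the same holds at 7 dpf, for lgals9l4 in CPM but not in raw reads.

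Among the jacalin genes, jac1 (ENSDARG00000092521) had 90, 136 and 129 reads in the HTO libraries at 10 dpf, against 1204, 1133 and 517 in the controls. Its mean level was 2.89 ± 0.501 CPM in HTO larvae and 20.9 ± 4.53 CPM in control larvae (SD, n = 3 each). All HTO libraries lay below all controls, and the difference was -2.86 on the log2 scale with and without the HTO library that stood apart. The summed reads, set against library size, were 7.64 times as many in controls as in HTO larvae (95% exact interval 6.84 to 8.55, which covers counting error only).

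At 7 dpf jac1 had 13, 27 and 7 reads in the HTO libraries, against 281, 75 and 32 in the controls. These came to 0.361 ± 0.113 CPM in HTO larvae and 2.47 ± 1.62 CPM in control larvae (SD, n = 3 each). Again the groups did not overlap, but the control values spread widely, with replicate 1 highest and replicate 3 lowest. The log2 fold change was -2.81 (SE 0.563), and with edgeR's quasi-likelihood test it missed the threshold of 0.05 after adjustment over all genes (adjusted p = 0.0691). DESeq2 gave -2.75 with an adjusted p of 7.34e-05, and without control replicate 3 edgeR gave -3.19 with an adjusted p of 0.000318. Without control replicate 1 the value was -2.12 in edgeR, with an adjusted p of 0.203. With the 7 dpf groups alone, and so without the 10 dpf libraries, edgeR gave -2.78 with an adjusted p of 0.137. At 7 dpf a difference at least as far below 0 as the -2.81 of jac1 was fitted for 0.234% of all tested genes. For the difference of jac1 at 10 dpf the share was 0.394%. Nothing is read from the 10 dpf share, since the 10 dpf values of jac1 are assumed to have entered the choice.

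The level of jac1 was also higher at 10 than at 7 dpf in both treatments. The log2 difference of 10 over 7 dpf was 2.96 in HTO larvae and 3.02 in control larvae, and the ages overlapped in neither treatment. Without control replicate 1 at 7 dpf the difference in controls was 3.69. A difference at least as large as that of jac1 with all libraries was fitted for 0.139% of tested genes in HTO larvae. In control larvae the share was 0.256%. Nothing is read from these shares, since jac1 is assumed to have been chosen by its 10 dpf values. Its group means therefore ran, high to low, from control at 10 dpf over HTO at 10 dpf and control at 7 dpf to HTO at 7 dpf. The middle pair of groups overlapped, with 2.41 to 3.41 CPM in HTO larvae at 10 dpf and 0.876 to 4.12 CPM in control larvae at 7 dpf.

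The gene jac7 (ENSDARG00000039100) had 13, 33 and 31 reads in the HTO libraries at 10 dpf, against 562, 593 and 66 in the controls. The means were 0.605 ± 0.204 CPM in HTO larvae and 8.42 ± 5.59 CPM in control larvae (SD, n = 3 each). The groups did not overlap, but control replicate 3, at 2.0 CPM, lay far below the other controls at 11 and 12.2 CPM. The log2 difference was -3.80, and -3.62 without the HTO library that stood apart.

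At 7 dpf jac7 had 26, 45 and 17 reads in the HTO libraries, against 143, 38 and 24 in the controls. The groups overlapped, since control replicate 3 had 0.657 CPM and the HTO libraries 0.500 to 0.869 CPM. The log2 fold change of -1.0 (SE 0.743) had an adjusted p of 0.687 in edgeR. In HTO larvae jac7 was nearly as high at 10 as at 7 dpf, with 0.605 against 0.721 CPM on average and a log2 difference of -0.19. In controls the means were 8.42 CPM at 10 dpf against 1.33 CPM at 7 dpf, a log2 difference of 2.61, although control replicate 3 at 10 dpf lay just below control replicate 1 at 7 dpf.

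The third jacalin gene with enough reads, jac8 (ENSDARG00000076958), had 26, 66 and 37 reads in the HTO libraries at 10 dpf, against 56, 42 and 26 in the controls. At 7 dpf it had 20, 58 and 9 reads in the HTO libraries, against 217, 17 and 27 in the controls. Groups overlapped at both ages. The log2 differences were 0.12 at 10 dpf (0.23 without the HTO library that stood apart) and -1.29 at 7 dpf (SE 0.606, adjusted p = 0.448 in edgeR), and the value at 7 dpf rested on control replicate 1, without which it was 0.035.

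Of the galectin 9-like genes, lgals9l4 (ENSDARG00000069058) had the widest range. At 10 dpf it had 2, 3 and 3 reads in the HTO libraries, against 2550, 1449 and 108 in the controls. The HTO libraries were alike and close to 0, whereas the controls differed among themselves, at 49.9, 29.9 and 3.27 CPM. Summed over libraries and set against their size, controls had 488 times as many reads as HTO larvae (95% exact counting interval 247 to 1130). That interval leaves out the spread between libraries. The fitted log2 fold change was -8.71, both with and without the HTO library that stood apart, and it rests on 8 HTO reads in all.

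The same gene had 2, 4 and 1 reads in the HTO libraries at 7 dpf, against 81, 22 and 3 in the controls. In CPM no HTO library reached the lowest control, but the lowest control, at 0.0821 CPM, was close to the highest HTO library, at 0.0705 CPM. In raw reads that control had 3 and that HTO library 4, so their order came from library size. Controls had 14.3 times as many reads for their size (95% exact counting interval 6.71 to 36.5). This interval again leaves out the spread between libraries, which the following SE includes. The log2 fold change of -3.67 had an SE of 1.95 and an adjusted p of 0.528 in edgeR. With the replicate number as a block the adjusted p in edgeR was 0.0324, at a log2 fold change of -3.80. The gene had 10 or more reads in 5 libraries, all controls, and passed the read filter only through those at 10 dpf. With the 7 dpf groups alone it did not pass, so these 7 dpf values are not read as an independent test. With age, controls had 27.7 ± 23.4 CPM at 10 dpf against 0.660 ± 0.554 CPM at 7 dpf (SD, n = 3 each), with no overlap. HTO larvae had 0.0652 CPM at 10 dpf against 0.0534 CPM at 7 dpf, and these libraries overlapped.

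The gene next to it in family, lgals9l1 (ENSDARG00000025903), had 109, 341 and 290 reads in the HTO libraries at 10 dpf, against 477, 327 and 236 in the controls. These came to 5.72 ± 2.12 CPM in HTO larvae and 7.74 ± 1.40 CPM in control larvae (SD, n = 3 each). At 7 dpf the levels were 5.1 ± 0.759 CPM in HTO larvae and 6.74 ± 1.34 CPM in control larvae (SD, n = 3 each). Libraries overlapped at both ages. The log2 difference was -0.43 at 10 dpf, but -0.18 without the HTO library that stood apart, which had the lowest value of all 12. At 7 dpf it was -0.39 (SE 0.250, adjusted p = 0.598 in edgeR).

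The most evenly expressed of the 6, lgals9l3 (ENSDARG00000041060), had 396, 965 and 712 reads in the HTO libraries at 10 dpf, against 1319, 1178 and 697 in the controls. In CPM these were 12.6, 17.1 and 18.8 in HTO larvae and 25.8, 24.3 and 21.1 in control larvae. The groups did not overlap, and the log2 difference was -0.56, or -0.40 without the HTO library that stood apart. At 7 dpf the means were 21.4 ± 2.09 CPM in HTO larvae and 23.8 ± 4.28 CPM in control larvae (SD, n = 3 each), the groups overlapped and the log2 fold change was -0.16 (SE 0.154, adjusted p = 0.778 in edgeR). Without control replicate 1 the 7 dpf value was 0.004. In HTO larvae all 10 dpf libraries lay below all 7 dpf libraries, with a log2 difference of -0.40, while in controls it was 0.00.

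The 4 remaining jacalin genes had 30 to 106 reads over all 12 libraries. The gene jac2 (ENSDARG00000056166) had 1, 1 and 0 reads in the HTO libraries and 1, 2 and 4 in the controls at 10 dpf, and 7, 9 and 3 in the HTO libraries and 76, 2 and 0 in the controls at 7 dpf. A single library, control replicate 1 at 7 dpf, thus held 71.7% of its 106 reads. The gene jac4 (ENSDARG00000092352) had 2, 0 and 2 reads in the HTO libraries and 19, 5 and 1 in the controls at 10 dpf, and at 7 dpf a single read in 1 control and 0 in the HTO libraries, which allows up to 0.0234 CPM over that group. Groups of jac4 overlapped at both ages under exposure.

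The gene jac6 (ENSDARG00000076530) had 3, 7 and 6 reads in the HTO libraries and 2, 6 and 4 in the controls at 10 dpf, and 3, 8 and 2 in the HTO libraries and 2, 0 and 0 in the controls at 7 dpf. In CPM the HTO libraries lay above the controls at 7 dpf, on 13 reads and 2 reads in all. The gene jac3 (ENSDARG00000098097) had 40 reads over all libraries, at most 9 in a library, and its groups overlapped in every comparison. No fold change was fitted or tested for these 4 genes.

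**Figure D2:**
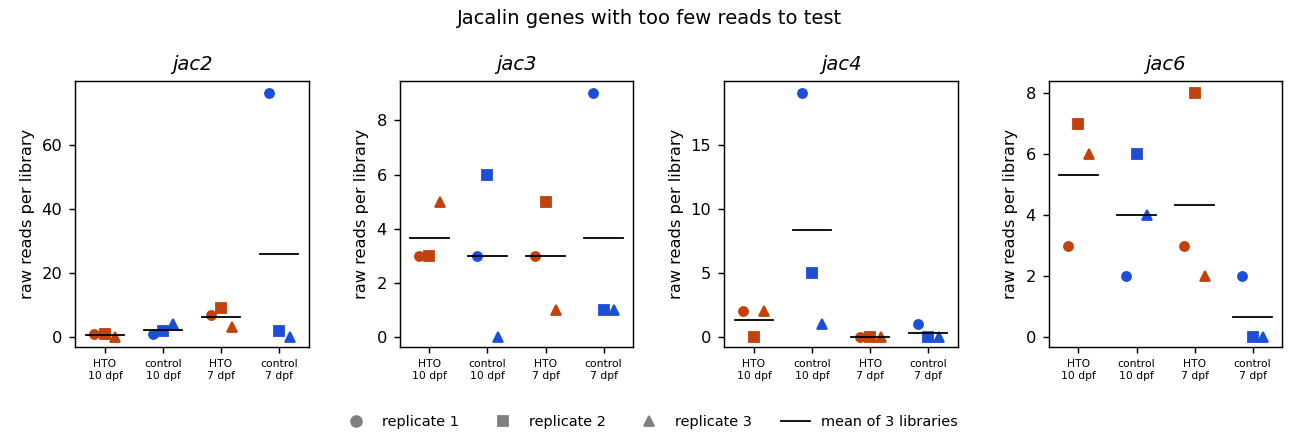
Raw reads per library for the 4 jacalin genes with too few reads to test, by group, with a point for each library and a line at the mean. The one high point of jac2 is control replicate 1 at 7 dpf with 76 reads, and that of jac4 is control replicate 1 at 10 dpf with 19 reads.

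Over the 10 genes, all HTO libraries lay below all controls at 10 dpf for 4 (jac1, jac7, lgals9l3 and lgals9l4) and above them for 0. Such a separation held for 18.4% of all tested genes below controls and for 15.4% above them, and nothing is read from the counts, since this contrast is assumed to have chosen the families. At 7 dpf the HTO libraries lay below the controls in CPM for jac1 and lgals9l4, beside 8.6% of tested genes. For lgals9l4 this order did not hold in raw reads. The HTO libraries lay above the controls for jac6, which is not among the tested genes, where the share was 8.15%. In edgeR 0 of the 6 fitted genes passed the threshold at 7 dpf, where 0.516% of all tested genes did, 0.178% higher and 0.338% lower. At an unadjusted p of 0.05 there was 1, jac1, beside 11.9% of tested genes, and DESeq2 called 1, again jac1, among 595 of all genes against 119 in edgeR. All 6 log2 fold changes at 7 dpf were below 0, where the median of all genes was -0.011. Without control replicate 1 at 7 dpf those of jac8 (0.035) and lgals9l3 (0.004) were above 0. Of the 6 genes, lgals9l4 passed the read filter only through the 10 dpf controls.

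With age, all 10 dpf libraries lay above all 7 dpf libraries in CPM in control larvae for jac1, jac4, jac6 and lgals9l4. For jac4 the nearest libraries of the ages had 1 read each, and for jac6 they had 2 each. Their order thus came from library size. Of the 4 genes, 2 (jac1 and lgals9l4) are among the tested genes, of which 22.5% had all 10 dpf above all 7 dpf libraries. In HTO larvae this held for jac1, beside 19.4% of tested genes, and the opposite order held for lgals9l3, beside 20.2% of tested genes, and for jac2, which was not tested. These contrasts share their libraries with the exposure contrasts. The difference between the exposure effects, 10 minus 7 dpf on the log2 scale, was -0.05 for jac1, -2.80 for jac7 and -5.04 for lgals9l4, and it was not tested for these genes.

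The same libraries were high or low for several of the 6 genes. Control replicate 1 at 7 dpf was the highest of its group for 6 of 6, and control replicate 3 at 7 dpf the lowest for 5. At 10 dpf control replicate 1 was the highest for 5 and control replicate 3 the lowest for 5. Among HTO libraries, replicate 3 at 10 dpf was the highest for 5, replicate 1 at 10 dpf the lowest for 4 and replicate 1 at 7 dpf the lowest for 5. How many of all tested genes share these orders was not counted, so they are not read as particular to the lectins.

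The genes lie in runs. In the RefSeq annotation of assembly GRCz12tu, which is not the build of the counts and is used for gene order only, 6 of the 7 jacalin genes are in a run of 16 genes on chromosome 7. The run begins with jac7, aep1 and jac11 come before jac1, and jac4, jac6, jac8 and jac3 follow among natterin-like genes, named for venom proteins of a toadfish. The 3 galectin 9-like genes are in a run of 7 on chromosome 15, with lgals9l4 beside lgals9l1. Genes of a run differed from each other at 10 dpf, with -8.71 for lgals9l4 against -0.43 for lgals9l1. In the jacalin run jac7 had -3.80 and jac8, which is not adjacent to it, had 0.12.

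**Figure D3:**
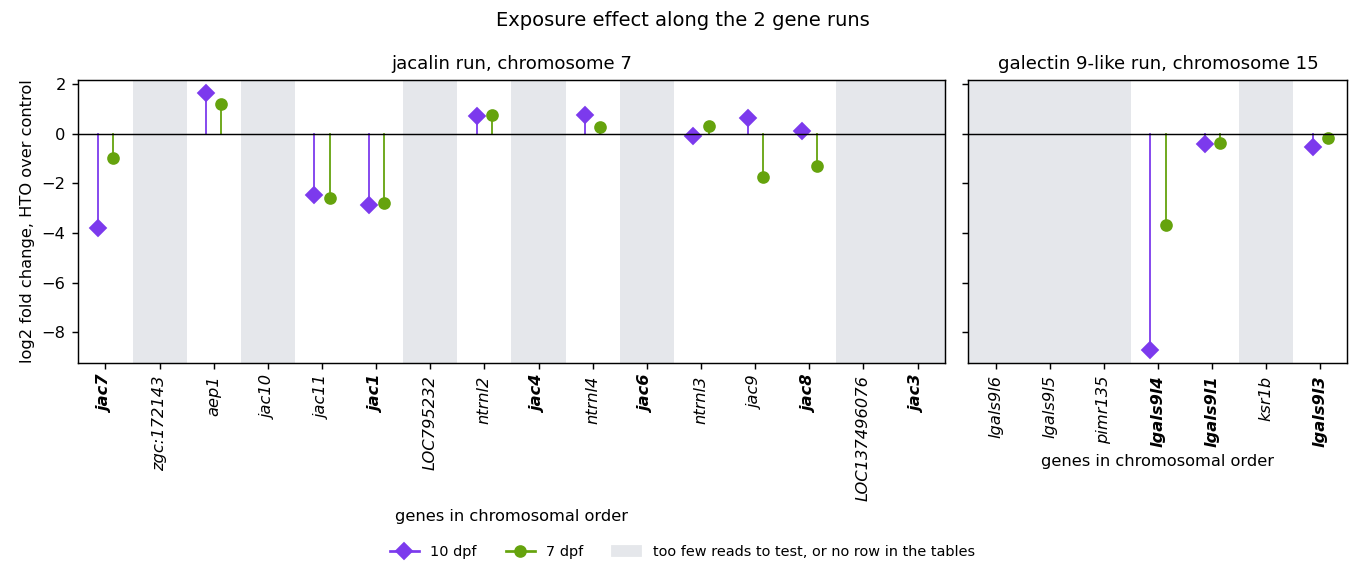
The log2 fold change, HTO over control, at 10 and at 7 dpf for the genes of the 2 runs in the order of the RefSeq annotation, with the lectin genes described here in bold and grey bands for genes without a fit. Values below 0 at both ages stand for jac7, jac11, jac1 and the 3 galectin 9-like genes, and aep1, ntrnl2 and ntrnl4 are above 0 at both ages.

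Among the neighbours, aep1 moved the other way. It encodes a lectin with a jacalin-type module and an aerolysin-type, pore-forming module, and RefSeq also lists it as jac5. Its levels at 10 dpf were 15, 9.66 and 7.76 CPM in HTO larvae and 3.76, 3.74 and 2.63 CPM in control larvae, with no overlap. It rose under HTO by 1.65 on the log2 scale (SE 0.251, adjusted p = 0.00322 in edgeR), with adjusted p values of 1.17e-10 to 0.0147 over all alternatives. Without the HTO library that stood apart the value was 1.36. At 7 dpf the levels were 43.4, 36.6 and 37.5 CPM in HTO larvae and 13.8, 17.0 and 21.3 CPM in control larvae. That log2 fold change of 1.18 (SE 0.227) had an adjusted p of 0.0538 in edgeR and of 2.34e-05 in DESeq2. The effects at the 2 ages differed by 0.48, with an adjusted p of 0.627 in edgeR. With age aep1 was lower where jac1 was higher, with a log2 difference of 10 over 7 dpf of -1.87 in HTO larvae and -2.34 in control larvae.

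The jacalin gene jac11, named here after its values were seen, had 32, 105 and 176 reads in the HTO libraries at 10 dpf, against 847, 620 and 405 in the controls. The log2 fold change was -2.47 (SE 0.705) with an adjusted p of 0.0558 in edgeR and 0.0188 in DESeq2. It was -2.13 (adjusted p = 0.144 in edgeR) without the HTO library that stood apart and -3.20 (adjusted p = 0.044 in edgeR) without HTO replicate 3. It also passed in edgeR with a filter of 1 CPM (adjusted p = 0.0492) and without control replicate 1 (0.0255) or 3 (0.0151) at 7 dpf. It did not pass in edgeR with RLE scaling (0.0557), library totals without TMM (0.0565) or reads without regard to strand (0.0573). Nor did it pass with the compared groups alone (0.0599), no filter (0.0747) or the replicate block (0.111). Over all alternatives its adjusted p ran from 0.0151 to 0.154. At 7 dpf it had 17, 30 and 9 reads in the HTO libraries, against 340, 64 and 14 in the controls, with a log2 fold change of -2.58 (adjusted p = 0.304 in edgeR) that was -1.42 without control replicate 1. The gene jac9, beside jac8 in the run, had log2 fold changes of 0.61 at 10 dpf (adjusted p = 0.533) and -1.75 at 7 dpf (adjusted p = 0.302) in edgeR. Its 7 dpf value was -0.15 without control replicate 1. That library was the highest of its group for both jac8 and jac9. The natterin-like gene ntrnl4, also named after its values were seen, rose under HTO at 10 dpf by 0.76 on the log2 scale (adjusted p = 0.0488 in edgeR), against a log2 fold change of 0.28 (adjusted p = 0.733 in edgeR) at 7 dpf.

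**Figure D4:**
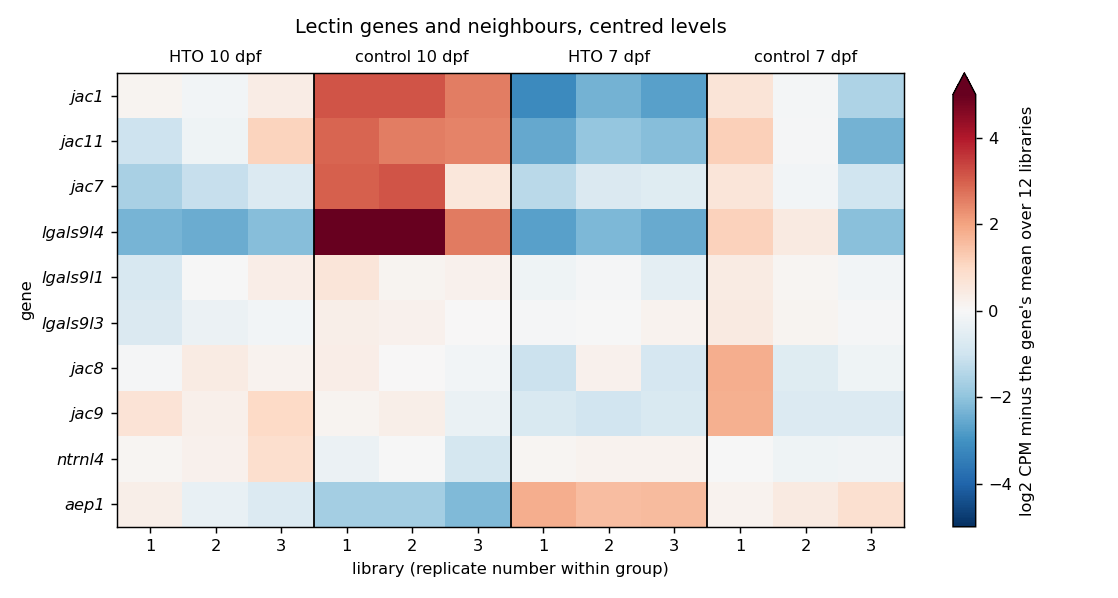
Levels of the 6 fitted lectin genes and 4 neighbours of the jacalin run in the 12 libraries, as log2 CPM minus the mean of each gene, with columns by group and replicate. The colour scale ends at 5, and lgals9l4 exceeds it in control replicates 1 and 2 at 10 dpf (6.51 and 5.77). Jac1 and jac11 are highest, and aep1 is lowest, in the control libraries at 10 dpf.

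Lists of other galectins, other jacalin domain genes and other soluble and membrane lectins held 35 tested genes. At 10 dpf 5 of the 35 passed the threshold, 2 higher and 3 lower, beside 11.8% of all tested genes, 4.77% higher and 7.02% lower, and their median log2 fold change was -0.07 against -0.00 for all genes. At 7 dpf 0 passed in edgeR, beside 0.516% of all tested genes, and 4 had an unadjusted p under 0.05, beside 11.9%. DESeq2 called 2 of the 35, and 595 genes in all. The median at 7 dpf was -0.03 against -0.01 for all genes. The difference between the ages passed for 0 of 35 in edgeR, and for 0.269% of all tested genes, 0.104% higher and 0.165% lower. At an unadjusted p under 0.05 there were 4 of 35. The share of all tested genes at that level was not counted for this contrast, so nothing is read from the 4.

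Of the genes called at 10 dpf, GRIFIN, a galectin relative known from the lens, rose under HTO by 0.46 on the log2 scale (adjusted p = 0.0222). It had 57.5 ± 6.99 CPM in HTO larvae and 41.7 ± 6.16 CPM in control larvae (SD, n = 3 each). The galectin 8 gene LGALS8 (ENSDARG00000037066) fell by 0.28 on that scale (adjusted p = 0.0326), with 10.8 ± 0.272 CPM in HTO larvae and 13.1 ± 0.393 CPM in control larvae (SD, n = 3 each). The galectin-like gene LGALSL (ENSDARG00000059060) fell by 0.48 (adjusted p = 0.0245 in edgeR), and LMAN2, a cargo lectin of the secretory pathway, by 0.33 (adjusted p = 0.0383 in edgeR). Each of these 4 calls, unlike that of aep1, was lost when some single library was left out, the HTO library that stood apart among them. A further gene named LGALS8 (ENSDARG00000037613) had a log2 fold change of 0.404 at 10 dpf (adjusted p = 0.0958 in edgeR). A further LGALSL gene (ENSDARG00000055525) had 0.222 (adjusted p = 0.393 in edgeR), so genes of the same name differed in sign.

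The most abundant galectins of these lists, lgals2b and lgals3b, did not pass. The galectin lgals2b had 327 ± 131 CPM in HTO larvae and 375 ± 31.3 CPM in control larvae at 10 dpf, and 520 ± 52.9 CPM in HTO larvae and 464 ± 40.6 CPM in control larvae at 7 dpf (SD, n = 3 each). For lgals3b the 4 group means were all between 117 and 131 CPM, and at 7 dpf the collectin COLEC12 had 50.4 ± 1.07 CPM in HTO larvae and 55.2 ± 8.43 CPM in control larvae (SD, n = 3 each). A gene that RefSeq lists with the synonyms lgals9 and lgals17, igldcp, had 8, 10 and 4 reads in the HTO libraries at 10 dpf against 119, 42 and 20 in the controls. It was named after its values were seen, its log2 fold change of -2.87 had an adjusted p of 0.0864 in edgeR, and more reads fell on its opposite strand than on its own.

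Of the marker lists for other cell types, those of goblet cells, macrophages and ionocytes had lower sums in all HTO than in all control libraries at 10 dpf. Goblet and mucus markers, 7 genes all with reads, summed to 175 to 220 CPM in HTO larvae and 427 to 600 CPM in control larvae at 10 dpf, without overlap. At 7 dpf they summed to 175 to 219 CPM in HTO larvae and 202 to 399 CPM in control larvae. At 10 dpf 3 of the 6 tested fell, beside 7.02% of all genes. They were AGR2, which helps to fold mucins (log2 fold change -1.41, adjusted p = 0.0398 in edgeR), the mucin muc5.1 (-1.66, adjusted p = 0.0103) and GALNT7, an enzyme of mucin-type glycosylation (-0.54, adjusted p = 0.0098). Those tested that did not pass in edgeR were SPDEF (-0.784, adjusted p = 0.0854), muc5.2 (-0.511, adjusted p = 0.249) and muc5.3 (0.175, adjusted p = 0.831). No defining goblet marker was at 0 in any group.

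Macrophage markers, 17 genes, summed to 76.8 to 109 CPM in HTO larvae and 146 to 166 CPM in control larvae at 10 dpf. At 7 dpf the sums were 62.2 to 75.4 CPM in HTO larvae and 75.7 to 118 CPM in control larvae. Groups were apart at both ages, and 2 of 11 tested genes fell at 10 dpf, beside 7.02% of all genes, the perforin-like gene MPEG1 (ENSDARG00000043093) with a log2 fold change of -1.01 and a copy of MFAP4 (ENSDARG00000038683) with -2.60. The same MPEG1 gene fell at 7 dpf, with -1.25 (adjusted p = 0.0458 in edgeR). The tested macrophage genes that did not pass at 10 dpf ran from -0.701 for another MPEG1 gene (ENSDARG00000055290) to 0.041 for another MFAP4 copy (ENSDARG00000088745). A further MPEG1 gene (ENSDARG00000078569) was at 0 in HTO and in control larvae at 10 dpf, and a further MFAP4 copy (ENSDARG00000111491) was at 0 in control larvae at that age. Neutrophil markers, 6 genes, overlapped at 10 dpf, with 57.9 to 79.1 CPM in HTO larvae and 66.8 to 88.7 CPM in control larvae. Of 5 tested 0 passed in edgeR, beside 11.8% of all genes. At 7 dpf the neutrophil sums were apart, with 49.2 to 58.1 CPM in HTO larvae and 59.3 to 97.3 CPM in control larvae.

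Enterocyte markers, 20 genes, summed to 972 to 3430 CPM in HTO larvae and 2910 to 3270 CPM in control larvae at 10 dpf, the lowest being the HTO library that stood apart. Of 12 epidermal markers 5 rose and 2 fell at 10 dpf, beside 4.77% and 7.02% of all genes, with sums of 9350 to 10700 CPM in HTO larvae and 6490 to 7030 CPM in control larvae. Of 8 ionocyte markers 2 fell at 10 dpf, beside 7.02% of all genes. Ionocyte sums were 230 to 274 CPM in HTO larvae and 299 to 325 CPM in control larvae at 10 dpf, without overlap. At 7 dpf they lay the other way, with 354 to 359 CPM in HTO larvae and 308 to 351 CPM in control larvae. At that age 1 ionocyte marker rose, beside 0.178% of all genes. Of 19 tested enterocyte markers 1 rose and 0 fell at 10 dpf, and 1 was higher for the difference between the ages. Of 7 lymphocyte, 8 liver and 10 exocrine pancreas markers tested, 0 passed at 10 dpf in edgeR, beside 11.8% of all genes. In lists this short, 0 is not read as absence of change. The part of any of these cell types in the lectin values was not tested.

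**Figure D5:**
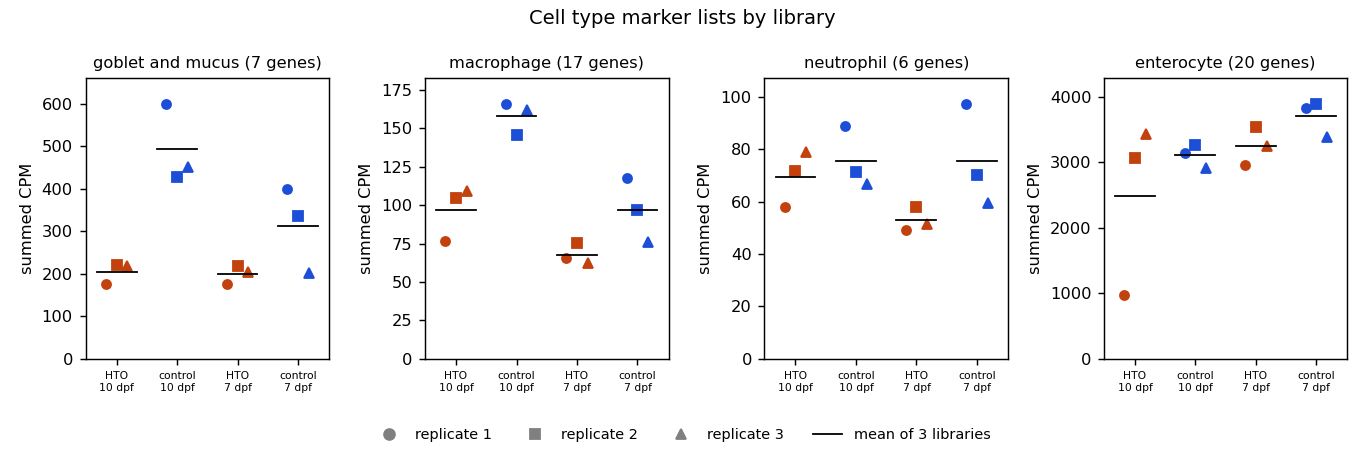
Summed CPM of 4 lists of cell type markers by group, with a point for each library and a line at the mean of 3. Goblet and mucus markers and macrophage markers lie lower in all HTO than in all control libraries at 10 dpf, neutrophil and enterocyte markers overlap at that age.

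The genes whose profiles were most like those of the lectins were found by the root mean square difference of centred log2 CPM over the 12 libraries, among 17105 genes. For jac1 they were vwa10.1 (0.419), which encodes a protein with a von Willebrand factor A domain, the finTRIM gene ftr31 (0.524) and jac11 (0.592). For comparison, the profile of jac1 has a root mean square of 2.09 about its own mean. The log2 fold changes of vwa10.1 under HTO were -2.67 at 10 dpf and -2.61 at 7 dpf, beside -2.86 and -2.81 for jac1. Genes near in profile were chosen on these same 12 libraries, so likeness of their fold changes follows from the choice.

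For jac7, whose own profile has a root mean square of 1.52, the nearest were the kinase gene BTK (0.528) and the phospholipase gene PLCG2 (0.668). Both are known from signalling in immune cells. The third was the myosin heavy chain gene MYH11 (0.712). The difference of BTK under HTO was -2.78 at 10 dpf and -0.18 at 7 dpf, and that of MYH11 -5.38 and -0.99. For lgals9l4 they were the ribonuclease-like gene rnasel4 (1.01), MYH11 (1.26) and hspa12a.1 (1.40), beside its own root mean square of 3.20. Of these, rnasel4 had -8.16 at 10 dpf and -2.51 at 7 dpf under HTO, while hspa12a.1 was low at both ages, with -9.50 and -8.41.

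The genes jac8, lgals9l1 and lgals9l3 had other neighbours in profile. The nearest to jac8 were the metalloproteinase gene mmp13a (0.401), a copy of MFAP4 (0.420) and HSPA8 (0.423). To lgals9l1 they were the leukotriene receptor gene LTB4R (0.114), laptm5 (0.132), a lysosomal membrane gene of blood cells, and CDK5RAP3 (0.142). To lgals9l3 they were the S6 kinase gene rps6kb1a (0.0799), OSTC (0.0958), a subunit of the oligosaccharyltransferase that starts N-glycans, and the actin binder COTL1 (0.106). The root mean squares of the lectin profiles themselves were 0.708 for jac8, 0.379 for lgals9l1 and 0.295 for lgals9l3, so the distances are not compared between lectins. Among the lectins themselves, jac1 and jac7 were nearest to each other at 1.29, with 58 genes closer to jac1 and 698 closer to jac7. The gene lgals9l4 was nearest to jac1 at 1.76, with 7 genes closer.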

How the data were processed

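The unit is the raw read count per gene, which the authors deposited in 1 table per library. STAR made these counts on genome build GRCz11, per the submitters' processing notes. Its version and the gene annotation used with it are not given here. The library kit kept the strand of the mRNA, and the RNA came from TRIzol without a DNase step, per the labels' protocols. The column for the strand opposite to read 1 was used, as the other held 2.24 to 2.55% of reads on genes. Lines that name no gene were left out. Symbols came from a table that names 28988 of 32057 genes and writes some in human style.

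Genes kept by edgeR's filterByExpr (minimum count 10, minimum total 15) numbered 23075. TMM scaling preceded a robust quasi-likelihood fit in edgeR that gave each group its own mean and left 8 residual degrees of freedom. Tests were two-sided, and p-values were adjusted over all genes (Benjamini-Hochberg) against 0.05. A count of 0 was taken to allow up to 3 reads. Marker and profile values used TMM-scaled CPM, with a prior count of 2 for log2 CPM.

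The 10 genes and all lists were chosen with earlier results of these data known. Named are these genes, genes of 3 lectin lists that passed, the 2 most abundant of each list, and the 3 genes nearest in profile to each fitted lectin among genes with at least 1 CPM in a group mean. The list symbols jac10 and zg16 matched no gene, and the RefSeq synonym jac5 stands for aep1. The markers were lists for enterocytes, goblet cells, epidermis, ionocytes, macrophages, neutrophils, lymphocytes, liver and exocrine pancreas.

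Alternatives were RLE scaling, no filter, a filter of 1 CPM in 3 libraries, the replicate number as a block, reads without regard to strand, DESeq2, the compared groups alone and leaving out each library. Library totals without TMM were added after the data were seen. The scripts were tested on simulated data. Of all pairs of libraries 0 were identical. The labels call the replicates biological and say no more, and p-values measure the spread between these libraries. The tools were edgeR 4.0.16 and DESeq2 1.42.0 in R 4.3.3, and matplotlib 3.10.9 in Python 3.11.15.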

Additional observations from a re-analysis of the deposited data

How the results depend on the processing

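The number of lectin genes past the threshold at 7 dpf, 0 of 6, was 1 with DESeq2 (jac1), 1 with library totals without TMM (jac1, -2.86, adjusted p = 0.0431 in edgeR) and 1 with the replicate block (lgals9l4), and 0 to 1 with each library left out, 1 being jac1 without control replicate 3. With the 7 dpf groups alone lgals9l4 did not pass the read filter and was not tested. The adjusted p of jac1 ran from 7.34e-05 to 0.292 over all alternatives. Same-numbered libraries deviated from their group means with correlations of -0.2 to 0.224 over 12 pairs. Pairs with different numbers were not compared, so these values cannot tell whether libraries of a number were matched. The labels do not say. Without control replicate 1 at 7 dpf the 7 dpf log2 fold changes of jac8 (0.035) and lgals9l3 (0.004) changed sign, where leaving out each library gave -1.95 to 0.035 and -0.277 to 0.004. That of jac7 was -0.40 and that of lgals9l4 -2.70. Without HTO replicate 2 that of jac8 was -1.95. The cause was not tested.

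The HTO libraries lay below controls at 10 dpf for 4 lectin genes (4 to 5 with a library left out). The count higher with age was 4 in controls (4 to 7, 7 without control replicate 1 at 7 dpf). Of these, jac4 and jac6 had equal raw reads in the nearest libraries of the ages. In HTO larvae the count was 1 (1 to 3, with 3 without HTO replicate 2 at either age). Without control replicate 1 at 10 dpf lgals9l4 had -7.96 at 10 dpf and 4.54 with age in controls. Without control replicate 1 at 7 dpf the age difference in controls was 6.21 for lgals9l4 and 0.51 for jac8, which was -0.79 with all libraries.

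Among the other lectins, calls at 7 dpf numbered 0, but 2 with DESeq2, 1 with the compared groups only and 0 to 3 with a library left out, 3 without control replicate 3 at 7 dpf. At 10 dpf they numbered 5, 4 to 7 over the other settings and 1 to 6 with a library left out: 1 without control replicate 1, 2 without control replicates 2 or 3 or HTO replicates 1 or 2, and 3 without HTO replicate 3 or HTO replicate 1 at 7 dpf. For the difference the count was 0 in every alternative run. Over all genes, calls at 7 dpf numbered 119 (12 to 831 with a library left out, 62 to 595 otherwise), and at 10 dpf 2721 (1153 to 3118, and 2086 to 3357). Over the 6 fitted lectin genes and all alternatives, 119 of 120 values at 10 dpf kept their sign, and 117 of 119 at 7 dpf. With age 109 of 120 values kept it in controls and 117 of 119 in HTO larvae. Many of these alternatives left out a library of a group not compared, so the values are not independent. The 10 dpf signs are assumed to have entered the choice of the families. Depth limits the 4 jacalin genes with few reads, and lgals9l4 in HTO larvae.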
